A study of Mus musculus with 4 samples.

Results

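Hexose transporters of the Slc2a family were measured in RNA of macrophages sorted from mouse liver, where the resident macrophages are called Kupffer cells. The set comprised 8 genes, Slc2a1, Slc2a2, Slc2a3, Slc2a4, Slc2a5, Slc2a6, Slc2a8 and Slc2a9, taken by gene name out of 23337 names in each library. Earlier results of these data were known when the set was chosen. All animals carried Lyz2cre-RosaYFP, a reporter in which the lysozyme gene Lyz2 drives Cre, and Cre switches on the fluorescent protein YFP from Rosa. A YFP+ cell, or a cell it descends from, has therefore made Cre. Lyz2 is active in much of the myeloid lineage and is not specific to Kupffer cells. The 2 groups were YFP+ and YFP- cells of mice of both sexes aged 6 to 8 weeks, with 2 libraries each. The libraries are called YFP+ M, YFP+ FM, YFP- M and YFP- FM after the start of their titles, whose meaning the labels do not give. Neither the number of animals behind a library nor whether any animal served for several is given, so p-values measure only the spread between these libraries, which may be technical.

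Slc2a proteins, also called GLUT proteins, let sugars cross membranes down their concentration gradient without using energy. Members differ in the sugar they carry, in their affinity and in the tissue and membrane in which they sit. Macrophages take up glucose mainly through Slc2a1, hepatocytes through Slc2a2, and in the brain Slc2a1 marks the capillary endothelium, Slc2a3 neurons and Slc2a5 microglia.

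The deposited values were TPM, transcript abundance per unit of gene length scaled to 1000000 per library, so levels of different genes can be compared. Read numbers are unknown, and mean coverage at 1 FPKM was between 2.59 and 9.19. The YFP+ libraries stood apart in make-up: 10302 genes in YFP+ M and 7386 in YFP+ FM reached 1 TPM against 12434 and 12829 in YFP- M and YFP- FM. Their 100 most abundant genes held 54.0% and 66.1% of all TPM against 40.9% and 29.7%, and the part of this in the lower values of YFP+ libraries was not tested. Kupffer cell markers were present in all libraries: the summed TPM of 10 such genes was 34346 in YFP+ M, 33181 in YFP+ FM, 6008 in YFP- M and 12520 in YFP- FM. The YFP- libraries also held transcripts that mark another macrophage. The summed TPM of 10 microglia markers, none of them listed at 0 in any library, was 18032 in YFP- M and 16898 in YFP- FM against 1113 in YFP+ M and 100.2 in YFP+ FM. The summed TPM of 10 brain endothelium markers ran in the same direction, 2830 and 1464 against 141 and 21.7. Oligodendrocyte markers summed to 739 and 846 TPM in YFP- M and YFP- FM against 106 and 27.1 in YFP+ M and YFP+ FM. Astrocyte markers summed to 203 and 183 against 34.4 and 5.86 in the same order. All 4 libraries are labelled liver, whereas microglia are macrophages of the brain, so the transcripts of both YFP- libraries go in part against their label. The YFP+ libraries held such transcripts too, at the lower levels given, so their values are not free of them. Since only YFP- M and YFP- FM stand for YFP-, no YFP- value without such transcripts could be given.

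Promoters of 3 members are shown because they belong to the genes whose differences are followed below: Slc2a1 and Slc2a5 were lower in YFP+ libraries under each scaling tried, and Slc2a6 did not follow them. The RefSeq table held promoters of 6 of the 8 genes. Each line gives the 250 bases before the gene's start on the strand of the gene, from RefSeq on GRCm38.p6. Capitals mark the matches to 5 motifs searched on both strands: the GC box GGGCGG, the ETS-type motif GAGGAA to which the macrophage factor PU.1 can bind, the hypoxia response core ACGTG, the TATA box TATAAA and the AP-1 motif TGANTCA. None of these motifs overlapped in the 3 windows.
Slc2a1 (chr4:119108495-119108744, + strand): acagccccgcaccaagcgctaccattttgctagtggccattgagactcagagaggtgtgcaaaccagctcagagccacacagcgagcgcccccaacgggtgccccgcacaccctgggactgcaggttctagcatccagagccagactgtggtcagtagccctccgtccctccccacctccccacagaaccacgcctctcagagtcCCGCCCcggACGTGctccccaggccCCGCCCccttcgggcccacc
Slc2a5 (chr4:150119094-150119343, + strand): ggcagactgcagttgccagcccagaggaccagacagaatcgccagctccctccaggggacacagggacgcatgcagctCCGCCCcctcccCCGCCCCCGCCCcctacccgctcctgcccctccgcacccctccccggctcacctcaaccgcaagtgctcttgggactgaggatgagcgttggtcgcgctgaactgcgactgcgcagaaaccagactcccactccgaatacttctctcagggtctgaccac
Slc2a6 (chr2:27027999-27028248, - strand): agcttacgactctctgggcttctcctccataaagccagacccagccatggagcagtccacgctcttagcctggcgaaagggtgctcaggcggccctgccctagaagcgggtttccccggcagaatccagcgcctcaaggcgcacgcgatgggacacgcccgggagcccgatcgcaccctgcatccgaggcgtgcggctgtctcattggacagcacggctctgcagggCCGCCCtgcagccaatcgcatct

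The Slc2a1 window held 2 GC boxes and, between them, 1 hypoxia response core that began 36 bases before the start. Slc2a5 held 3 GC boxes, beginning 172, 160 and 154 bases before the start. In Slc2a6 a single GC box began 23 bases before the start. Of 32851 promoter windows of this length, 32.7% held a GC box and 16.6% the hypoxia response core. The ETS-type motif, the TATA box and the AP-1 motif, held by 23.3%, 12.4% and 6.75% of all windows, were not among the letters of these 3. Their G and C content was 66.4% for both Slc2a1 and Slc2a5 and 65.2% for Slc2a6, against a median of 52.4%. The windows of Slc2a2, Slc2a8 and Slc2a9 held no GC box. That of Slc2a9 held 1 AP-1 motif and lies before a RefSeq start 18767 bases away from the gene's start in the deposited coordinates.

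Slc2a1 and Slc2a5, the carriers of glucose and of fructose, were the most abundant hexose transporters in YFP- libraries and were far lower in YFP+ libraries. Slc2a6 was at about the same level in both YFP+ libraries and split the YFP- libraries. Of the 6 members that passed the filter of at least 1 TPM in at least 2 libraries, 4 fell and 0 rose in YFP+ libraries (limma-trend on log2(TPM + 1), Benjamini-Hochberg adjusted p below 0.05 over 12251 genes), and 0 were higher at an unadjusted p under 0.05. Of all genes tested 39.5% were called lower and 0.522% higher, and their median difference was -1.73 on the log2 scale against -2.19 for the 6 members. A member that was called lower is thus to be read against a typical gene that was itself lower. Values without overlap between the groups were seen in 5 of the 6, all lower in YFP+, as in 79.7% of all genes tested. Slc2a1, Slc2a3, Slc2a6 and Slc2a8 reached 1 TPM in all 4 libraries, and Slc2a5 and Slc2a9 in 3, missing it in YFP+ FM.

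How many genes of the whole table were called depended on the setting, and member calls under a setting are to be read against it. With limma, 25.1% of tested genes were called lower and 0.416% higher with a pseudocount of 0.1, 0.72% and 0.00429% with no filter, 31.6% and 0.621% with a filter at 5 TPM, 30.8% and 1.02% with FPKM, and 14.1% and 0.188% when title start entered as a block. Leaving out YFP+ M gave 68.2% lower and 0.346% higher, YFP+ FM 7.95% and 0.0983%, YFP- M 0.253% and 0.69%, and YFP- FM 0.234% and 0.399%. Of the 4 member calls 2 were kept without YFP+ FM (Slc2a1 and Slc2a5), 1 without YFP- M (Slc2a1) and 0 without YFP- FM.

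**Figure D1:**
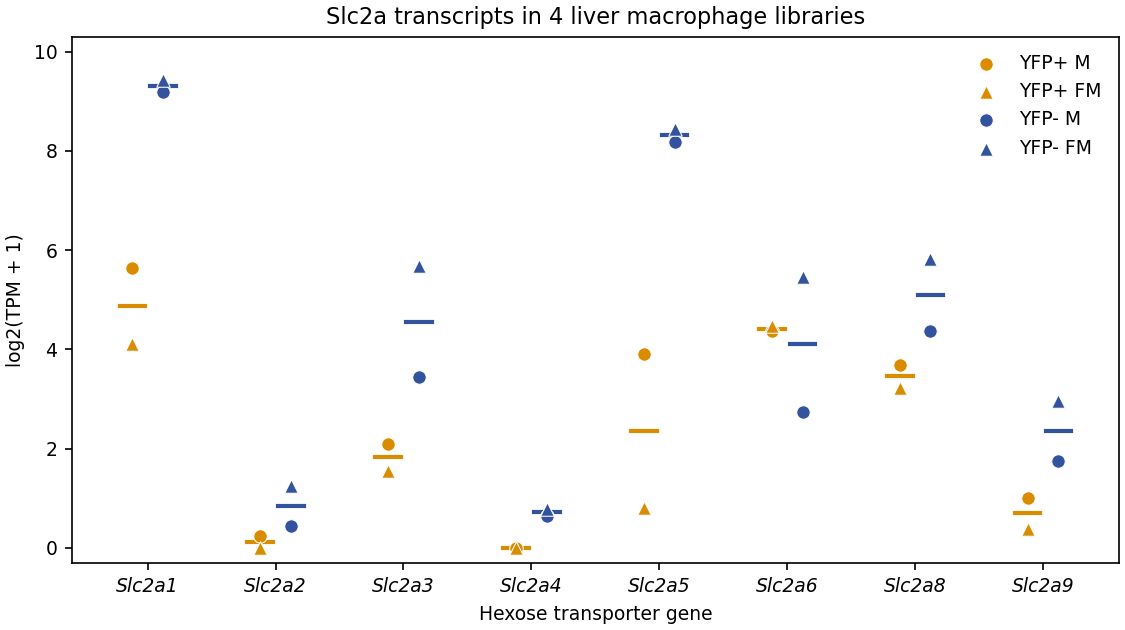
Level of each hexose transporter as log2(TPM + 1) in 2 YFP+ (orange) and 2 YFP- (blue) libraries, circles for M and triangles for FM, with a bar at the mean of each group. Slc2a1 and Slc2a5 show the widest gap between groups, while the YFP- libraries lie above and below the YFP+ libraries for Slc2a6.

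Among glucose carriers, Slc2a1 (chromosome 4, 119108745 to 119137329, GRCm38) is the widely expressed transporter of basal glucose uptake. It stood at 48.7 TPM in YFP+ M and 16.3 in YFP+ FM against 580.2 in YFP- M and 692.7 in YFP- FM. The lower YFP- library lay 11.9 times above the higher YFP+ library, so the groups did not overlap. It was the most abundant member in 3 libraries, ranking 240 and 213 among all genes in YFP- M and YFP- FM, and 1605 and 1991 in YFP+ M and YFP+ FM. The log2 fold change was -4.43 (SE 0.92, limma adjusted p = 0.00019), lower in both title starts (-3.55 between M and -5.32 between FM libraries). Only 0.751% of tested genes had a lower fold change. Slc2a1 was also called under quantile normalization (-3.71, adjusted p = 0.0311), median-ratio scaling (-2.17, adjusted p = 0.0462) and cyclic loess (-3.63, adjusted p = 0.0463), which bring the libraries to a common scale. These settings called 1.67%, 5.9% and 0.327% of all genes lower. The call was lost without the YFP- FM library (-4.31, adjusted p = 0.0970) and with no filter on low genes (adjusted p = 0.161).

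Brain endothelium carries abundant Slc2a1, and the markers of that cell type were, like Slc2a1, lower in YFP+ libraries. Between the YFP- libraries the order differed. Each marker was higher in YFP- M than in YFP- FM, with sums of 2830 and 1464 TPM, whereas Slc2a1 stood at 580.2 and 692.7. All 10 marker genes tested were called lower in YFP+ libraries, with a median of -4.52, beside 39.5% and -1.73 for all tested genes. Ly6c1 was the most abundant marker (55.3 and 8.36 against 1147 and 433 TPM). Slc2a1 equalled 34.5% and 75.3% of the summed marker TPM in YFP+ M and YFP+ FM, and 20.5% and 47.3% in YFP- M and YFP- FM. Within each title start the share was higher in the YFP+ library, but the start was not taken as a pairing. Over all libraries the groups overlapped, with YFP+ M (34.5%) below YFP- FM (47.3%). Markers of liver sinusoidal endothelium, with a sum of 353 and 204 against 976 and 1206 TPM, had 4 of 10 tested genes called lower and 0 higher, a share close to the 39.5% of all tested genes. The part of these cells in the Slc2a1 result was not tested. In such bulk libraries fewer cells of a type and less RNA per cell cannot be told apart.

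Slc2a3 (chromosome 6, 122727809 to 122742745), a high-affinity glucose carrier of neurons and white blood cells, stood at 3.27 TPM in YFP+ M, 1.94 in YFP+ FM, 9.89 in YFP- M and 49.98 in YFP- FM. The groups did not overlap, but the YFP- libraries lay further from each other than YFP- M lay from the YFP+ libraries. The log2 fold change was -2.73 (SE 1.1, limma adjusted p = 0.0428), with -1.35 between M and -4.12 between FM libraries. It did not pass under quantile normalization (-0.68, adjusted p = 0.568), median-ratio scaling (-0.75, adjusted p = 0.388) or loess (-0.52, adjusted p = 0.665), and under each of these the groups overlapped. It also did not pass without YFP+ FM (adjusted p = 0.0916), YFP- M (0.388) or YFP- FM (0.691), in each case with limma. The same held when title start entered as a block (adjusted p = 0.206), with a pseudocount of 0.1 (0.0752), with FPKM (0.0523) and with no filter (0.225). Neuron markers were low: the 8 genes summed to 5.04 and 2.27 TPM in YFP+ M and YFP+ FM and 21.4 and 14.4 in YFP- M and YFP- FM, with 6 of them listed at 0 in YFP+ FM. White blood cells also carry Slc2a3, and 7 neutrophil markers summed to 1258 and 6558 TPM in YFP+ M and YFP+ FM and 1694 and 3058 in YFP- M and YFP- FM. S100a8 and S100a9 made up most of the sum in YFP+ FM, at 1542 and 4874 TPM, and were also highest there. Only the neutrophil receptor Csf3r was, like Slc2a3, lowest in YFP+ FM and highest in YFP- FM. It stood at 35.2 TPM in YFP+ M, 16.9 in YFP+ FM, 109.7 in YFP- M and 366 in YFP- FM. Of the other markers, Cxcr2 and Mmp9 were lowest in YFP- M, and Retnlg, Mmp8, S100a8 and S100a9 in YFP+ M. The markers of this list thus did not run in 1 direction, and the part of either cell type in the Slc2a3 result was not tested.

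Slc2a2 and Slc2a4, the carriers of hepatocytes and of insulin-responsive muscle and fat, were at the edge of detection and were not tested. Slc2a2 (chromosome 3, 28697903 to 28728360) had its highest value, 1.38 TPM, in YFP- FM, ahead of 0.350 in YFP- M and 0.174 in YFP+ M, with a listed 0 in YFP+ FM. Its low level stood beside hepatocyte transcripts in every library, with Alb, serum albumin, at 156 and 378 against 183 and 1066 TPM in M and FM. Slc2a4 (chromosome 11, 69942286 to 69948190) was listed at 0 in both YFP+ libraries and stood at 0.564 and 0.731 TPM in YFP- M and YFP- FM, where mean coverage of the gene was 3.07 and 0.819. The summed TPM of 8 muscle and fat markers was at most 1.09 in any library, and Myh4, Adipoq and Plin1 were listed at 0 in all 4. Zeros in tables of this kind can be failed estimates, so no fold change is given for either gene.

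Slc2a5 (chromosome 4, 150119344 to 150144168) carries fructose and is a marker of microglia. It stood at 14.1 TPM in YFP+ M and 0.759 in YFP+ FM against 290.1 in YFP- M and 348 in YFP- FM. Its YFP- libraries were close to each other, whereas the YFP+ libraries differed 18.6-fold, and the groups did not overlap. The value in YFP+ FM rests on a mean coverage of 1.60. The log2 fold change was -5.95 (SE 1.0, limma adjusted p = 9.11e-06), with -4.27 between M and -7.63 between FM libraries. Only 0.049% of tested genes had a lower one. Slc2a5 was called under quantile normalization (-4.70, adjusted p = 0.0311), median-ratio scaling (-4.06, adjusted p = 0.00353) and loess (-4.35, adjusted p = 0.0463). The call was lost without YFP- M (-6.08, adjusted p = 0.0620), without YFP- FM (-5.82, adjusted p = 0.141) and with no filter (adjusted p = 0.193).

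Microglia markers went the way of Slc2a5 between the groups. All 10 tested markers were called lower in YFP+ libraries with a median of -5.89. They ranged from -3.77 for the purinergic receptor P2ry13 to -6.54 for Tmem119. Of all tested genes 39.5% were called lower, with a median of -1.73. The marker list was chosen with earlier results of these data known. Set against the summed TPM of the markers, Slc2a5 was 1.27% in YFP+ M and 0.758% in YFP+ FM, 1.61% in YFP- M and 2.06% in YFP- FM. Within each title start this ratio was lower in the YFP+ library. The part of microglia transcripts in the Slc2a5 result was not tested. Slc2a7, the neighbour 4803 bases downstream, was listed at 0 in all 4 libraries. No other gene with a single row overlapped Slc2a5 or any other member in the deposited coordinates.

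**Figure D2:**
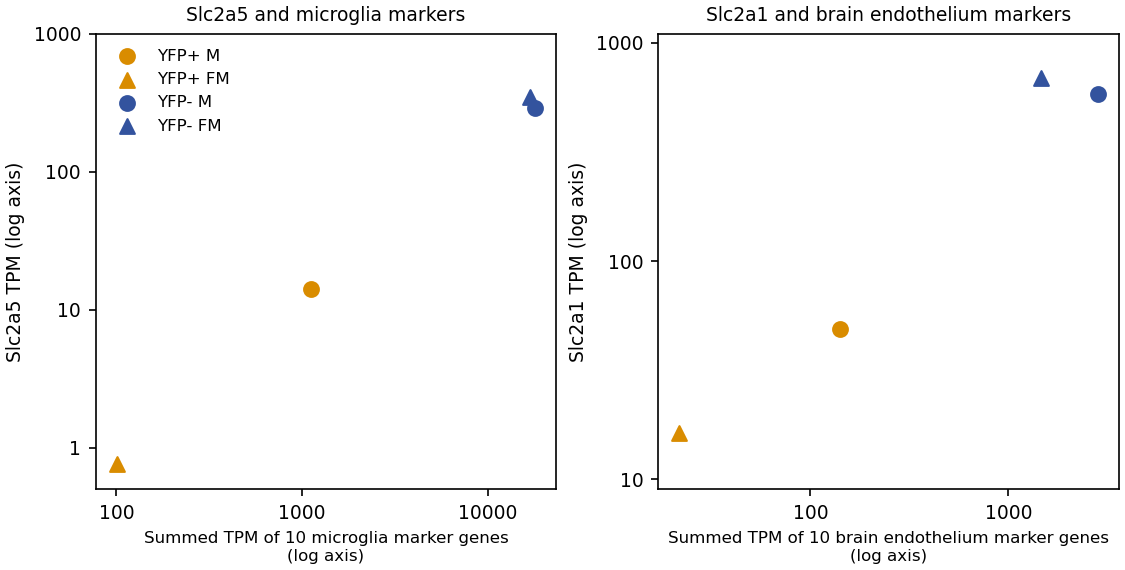
TPM of Slc2a5 against the summed TPM of 10 microglia markers (left) and of Slc2a1 against that of 10 brain endothelium markers (right) in each library, all axes on a log scale, YFP+ in orange and YFP- in blue, circles for M and triangles for FM. In both panels YFP+ FM is lowest and YFP+ M next, and the YFP- libraries lie at the upper right.

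Slc2a6 and Slc2a8 sit mainly on membranes inside the cell. Slc2a6 (chromosome 2, 27021365 to 27027998), a lysosomal transporter induced in activated macrophages, stood at 19.6 TPM in YFP+ M and 21.1 in YFP+ FM against 5.70 in YFP- M and 43.3 in YFP- FM. The YFP+ libraries were close to each other and lay between the YFP- libraries, so the groups overlapped. The log2 fold change was 0.31 (SE 1.1, limma adjusted p = 0.813), higher than that of 95.5% of tested genes. It had opposite signs in the title starts, 1.62 between M and -1.002 between FM libraries. Since both YFP+ values lay between the YFP- values, either pairing of the libraries gives opposite signs. On a common scale Slc2a6 lay higher in both YFP+ libraries without overlap, passing under median-ratio scaling (2.47, adjusted p = 0.0308) but not under quantile normalization (2.06, adjusted p = 0.183) or loess (2.29, adjusted p = 0.183). Median-ratio scaling called 5.62% of all genes higher, quantile normalization 1.21% and loess 0.531%. Without YFP- M the sign turned (-1.05, adjusted p = 0.645).

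Slc2a8 (chromosome 2, 32972989 to 32982056), a glucose carrier kept inside the cell by a dileucine signal, stood at 11.9 TPM in YFP+ M, 8.40 in YFP+ FM, 19.6 in YFP- M and 55.4 in YFP- FM. The groups did not overlap, yet the difference was within the spread of the fit (-1.63, SE 1.1, limma adjusted p = 0.207) and close to the median of all genes. Its sign turned under quantile normalization (0.22), median-ratio scaling (0.55) and loess (0.34), where the groups overlapped. Slc2a9 (chromosome 5, 38349273 to 38502152) transports urate and was the lowest tested member, at 1.02 TPM in YFP+ M, 0.307 in YFP+ FM, 2.36 in YFP- M and 6.78 in YFP- FM. It fell in YFP+ libraries (-1.65, SE 0.59, limma adjusted p = 0.0196), again at a distance of 0.08 from the median of all genes. It did not pass under median-ratio scaling (-0.33, adjusted p = 0.582), and under quantile normalization (0.10, adjusted p = 0.888) and loess (0.02, adjusted p = 0.983) its sign turned. Its call was also lost with the title start as a block (adjusted p = 0.105), with a pseudocount of 0.1 (adjusted p = 0.108), and without YFP+ FM (adjusted p = 0.157), YFP- M (0.388) or YFP- FM (0.680).

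**Figure D3:**
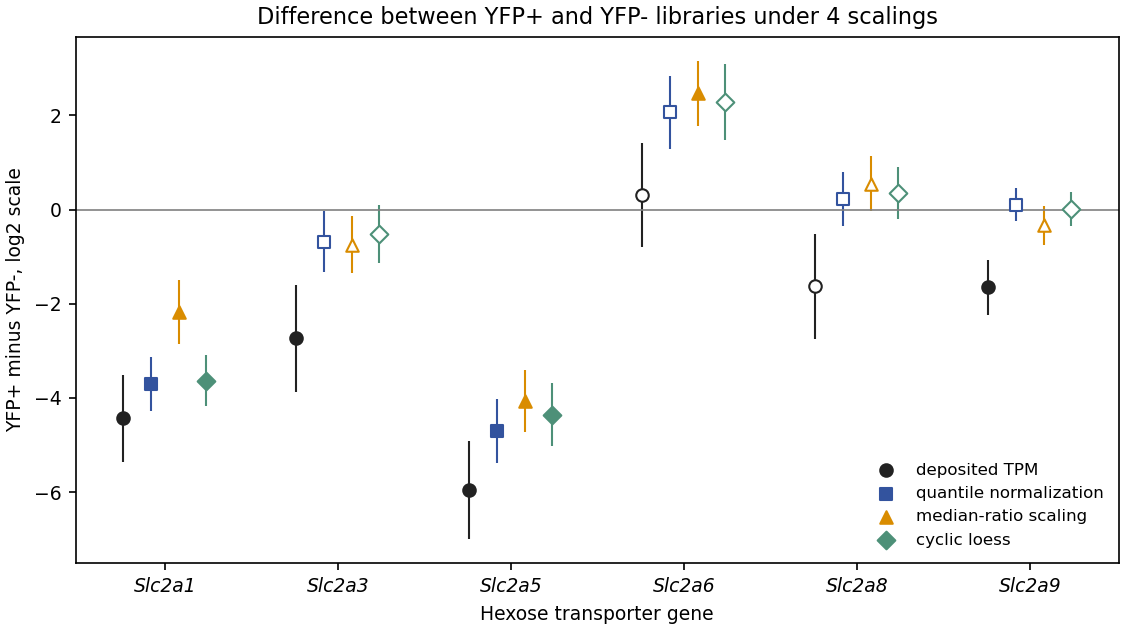
Difference between YFP+ and YFP- libraries on the log2 scale with its standard error for the 6 tested members. Values are shown on the deposited TPM and under 3 scalings that bring the libraries to a common scale. Filled symbols passed at an adjusted p below 0.05. Slc2a1 and Slc2a5 stay filled and below 0 in each setting shown, and Slc2a6 lies above 0 throughout, filled for median-ratio scaling only.

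Shares within the family are the same in TPM and FPKM, and were not computed under quantile normalization or loess, which shift genes of different level by different amounts. The 8 genes summed to 98.7 TPM in YFP+ M and 48.9 in YFP+ FM against 909 in YFP- M and 1198 in YFP- FM. Slc2a1 and Slc2a5 together made up 95.8% and 86.9% of this sum in YFP- M and YFP- FM, and 63.6% and 35.0% in YFP+ M and YFP+ FM. The share of Slc2a6 was 19.9% and 43.2% in YFP+ M and YFP+ FM and 0.627% and 3.61% in YFP- M and YFP- FM. Slc2a8 held 12.02% and 17.2% against 2.15% and 4.62% in the same order. The groups did not overlap for the shares of Slc2a1, Slc2a4, Slc2a5, Slc2a6, Slc2a8 and Slc2a9, and overlapped for Slc2a2 and Slc2a3. For Slc2a4 this rests on the listed 0 in both YFP+ libraries, which can be a failed estimate. For each of the 6 without overlap the exact two-sided permutation p was 0.33, the smallest that 2 against 2 libraries allow. None of these differences could therefore pass a test. Leaving out 1 library moved the difference in share between YFP+ and YFP- libraries from -19.4 percentage points to between -11.5 (without YFP+ FM) and -27.4 (without YFP+ M) for Slc2a1, and from 29.4 to between 17.7 and 41.1, without the same libraries, for Slc2a6. A share can move through any of the other members. The ratio of Slc2a1 to Slc2a5 was close to equal in the YFP- libraries (2.00 for M, 1.99 for FM), against 3.46 for YFP+ M and 21.5 for YFP+ FM.

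**Figure D4:**
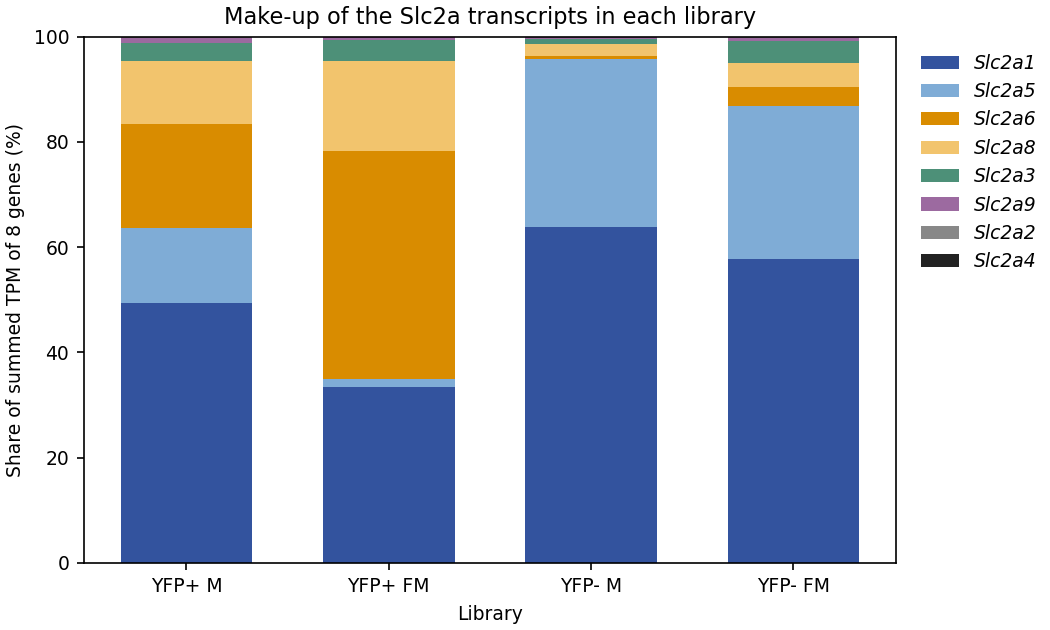
Share of each gene in the summed TPM of the 8 hexose transporters, in percent, for each of the 4 libraries. Slc2a1 and Slc2a5 fill most of both YFP- bars, and Slc2a6 and Slc2a8 together take 31.9% of the YFP+ M bar and 60.4% of the YFP+ FM bar.

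In both YFP- libraries the order of levels ran Slc2a1, Slc2a5, Slc2a8, Slc2a3, Slc2a6 and Slc2a9, with Slc2a2 and Slc2a4 last. By group mean the YFP- values were 636 ± 79.6 TPM for Slc2a1 and 319 ± 41.1 for Slc2a5 (SD, n = 2), whose libraries did not overlap. Slc2a8 (37.5 ± 25.3), Slc2a3 (29.9 ± 28.3) and Slc2a6 (24.5 ± 26.6) were not separated beyond their spread in mean TPM. In the YFP+ group Slc2a1 (32.5 ± 22.9) and Slc2a6 (20.4 ± 1.1) changed places between the libraries, with Slc2a6 the most abundant member in YFP+ FM. Slc2a5 (7.42 ± 9.4) lay above Slc2a8 and Slc2a3 in YFP+ M and below both in YFP+ FM.

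Genes of most similar pattern were sought among 9313 genes for each member (9314 for Slc2a9), by the root mean square difference of log2(TPM + 1) values less their mean over the 4 libraries. For Slc2a1 they were Tspan7 (0.081), Cxxc5 (0.088) and Pmepa1 (0.115). For Slc2a5 they were the protease inhibitor Serpine2 (0.143), Gal3st4 (0.170) and the ribonuclease Rnase4 (0.172). Serpine2 stood at 15.5 TPM in YFP+ M, 1.14 in YFP+ FM, 291 in YFP- M and 325 in YFP- FM, close to Slc2a5 in every library. Slc2a6 lay nearest to Osgin1 (0.137), Serpina3f (0.209) and Plekho2 (0.218), and Osgin1 likewise had its YFP+ libraries (43.2 and 42.3 TPM) between YFP- M (11.4) and YFP- FM (72.0). Those nearest to Slc2a3 were Gpr132 (0.068), Sema4a (0.082) and Nploc4 (0.105). Slc2a8 lay nearest to Ranbp3 (0.035) and Slc2a9 to Tctn1 (0.022). With 4 libraries such likeness is a description of these values.

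Other genes of sugar uptake and handling were taken from 7 lists of 56 genes, of which 39 were tested. Of these 13 fell (33.3%) and 0 rose in YFP+ libraries, with a median of -1.59, beside 39.5% and -1.73 for all genes, and 0 were higher at an unadjusted p under 0.05. The remaining family members Slc2a7, Slc2a10, Slc2a12 and Slc2a13 did not pass the filter, and the highest value among them was 1.97 TPM, for Slc2a12 in YFP- FM. Of 4 tested sodium-coupled and SWEET sugar carriers 2 fell and 0 rose. Slc5a10 fell (-1.59, limma adjusted p = 0.00025), as did the inositol carrier Slc5a3 (-1.07, adjusted p = 0.0171), both at most 2.51 TPM. Neither passed under quantile normalization, median-ratio scaling or loess, with Slc5a10 at -0.28, -0.78 and -0.32 (adjusted p = 0.632, 0.0982 and 0.495) and Slc5a3 at 0.32, -0.22 and 0.26 (adjusted p = 0.478, 0.660 and 0.574), its sign turned in the first and last. The block also ended the call of Slc5a3 (adjusted p = 0.0594). Slc50a1, the SWEET carrier, was the most abundant at 66.0 and 23.2 against 133 and 84.8 TPM and did not pass (-1.41, adjusted p = 0.220). Slc5a11, a sodium-coupled inositol carrier, stood at 8.17 TPM in YFP+ M, 3.05 in YFP+ FM, 1.48 in YFP- M and 4.47 in YFP- FM (0.73, adjusted p = 0.484), and was called higher under quantile normalization (2.50), median-ratio scaling (2.45) and loess (2.78).

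Enzymes that act on the incoming hexose were not called on the deposited values. Of 6 tested hexose kinases and phosphatases 0 fell and 0 rose, and the same held for 5 genes of fructose breakdown and the polyol pathway. Beside them, 39.5% of all tested genes were called lower and 0.522% higher. At an unadjusted limma p under 0.05, 1 gene of the first list was lower and 0 were higher, and of the second 0 were lower and 0 higher. Hk3, the hexokinase of myeloid cells, stood at 133 TPM in YFP+ M, 121 in YFP+ FM, 69.4 in YFP- M and 333 in YFP- FM (-0.26, limma adjusted p = 0.811). Adpgk, an ADP-dependent glucokinase, stood at 51.5 and 27.1 against 42.8 and 163 TPM (-1.14, adjusted p = 0.326). Khk, the ketohexokinase that phosphorylates fructose, stood at 62.6 and 30.4 against 75.6 and 61.7 TPM (-0.63, adjusted p = 0.588), and Sord, which makes fructose from sorbitol, at 40.5 and 7.03 against 49.9 and 108 TPM (-2.03, adjusted p = 0.0983). Akr1b3, the aldose reductase that opens the polyol pathway, stood at 3.62 and 1.59 against 1.67 and 2.37 TPM (0.21, adjusted p = 0.791) and, a gene chosen after its values were seen, was called higher under the same 3 scalings, at 1.95, 1.73 and 1.96.

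Of 12 tested genes of transporter traffic and degradation 5 fell and 0 rose, near the 39.5% called lower of all tested genes. Txnip, an arrestin-like protein that removes Slc2a1 from the cell surface, stood at 159 TPM in YFP+ M, 16.5 in YFP+ FM, 605 in YFP- M and 852 in YFP- FM (-3.76, limma adjusted p = 0.000549). It was lower together with Slc2a1 and did not pass under quantile normalization (adjusted p = 0.0599), median-ratio scaling (0.186) or loess (0.104). The sorting receptor Sort1 of Slc2a4 vesicles was at 2.98 and 0.562 against 40.7 and 64.6 TPM (-4.39, adjusted p = 0.00163), Lnpep, the aminopeptidase of those vesicles, fell by 1.58 (adjusted p = 0.00567) and Vps35 of the retromer, which returns Slc2a1 to the surface, by 3.33 (adjusted p = 0.0104). Sort1 also passed under quantile normalization (-2.53, adjusted p = 0.0342) and median-ratio scaling (-2.62, adjusted p = 0.00717) but not under loess (-2.23, adjusted p = 0.0530). Lnpep was at 0.018, -0.48 and -0.08 in that order and did not pass (adjusted p = 0.978, 0.349 and 0.905). Vps35 was at -1.61, -1.19 and -1.54 and did not pass either (adjusted p = 0.148, 0.147 and 0.158), nor with the block (0.0933). Rab10 (-1.66, adjusted p = 0.157) and Aspscr1 (-0.93, adjusted p = 0.432) did not pass.

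Among transcription regulators of Slc2a genes 4 of 9 tested fell and 0 rose, beside 39.5% called lower of all tested genes. Mlxipl, the glucose-sensing factor ChREBP, stood at 3.66 and 0.118 against 55.0 and 94.9 TPM (-5.00, limma adjusted p = 0.000414), and the hypoxia factor Epas1 at 12.95 and 3.08 against 175 and 188 TPM (-4.60, adjusted p = 0.000411). Both passed under quantile normalization, median-ratio scaling and loess, at -3.44, -3.54 and -2.88 for Mlxipl and -3.08, -2.46 and -2.95 for Epas1. Hif1a, the hypoxia factor whose core motif stands in the Slc2a1 window above, was at 4.06 and 0.518 against 17.4 and 32.1 TPM (-3.15, adjusted p = 0.0196) and did not pass under those scalings (adjusted p = 0.194, 0.0915 and 0.254) or with the block (0.152). Mef2a fell by 2.90 (adjusted p = 0.0334) but did not pass under the 3 scalings (-0.93, -0.88 and -0.79, adjusted p = 0.312, 0.259 and 0.349) or with the block (0.181). Myc (-1.83, adjusted p = 0.131) and Mlxip (-2.56, adjusted p = 0.0514) did not pass. Of 3 tested urate genes, listed for Slc2a9, 2 fell and 0 rose: the exporter Abcg2, which brain capillaries also carry, at 6.07 and 0.636 against 89.2 and 40.0 TPM (-4.16, adjusted p = 0.00252) and Uox, urate oxidase (-1.42, adjusted p = 0.0409). Abcg2 passed under median-ratio scaling (-2.35, adjusted p = 0.0265) but not under quantile normalization (-2.34, adjusted p = 0.103), loess (-2.07, adjusted p = 0.144) or with the block (0.0513). Uox did not pass under quantile normalization (0.26, adjusted p = 0.747) or loess (0.24, adjusted p = 0.810), where its sign turned, under median-ratio scaling (-0.21, adjusted p = 0.768) or with the block (0.159). Xdh, xanthine dehydrogenase, did not pass (-0.79, adjusted p = 0.512).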

How the data were processed

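Total RNA of 4 sorted libraries was sequenced, and each library has its table of genes. The authors deposited mean read coverage, FPKM and TPM, per the file headers. TPM adds up to 1000000 in each library, so every value also depends on the other transcripts present. The submitters' processing notes name HISAT, GRCm38 and mm10. For the program behind the tables, the kit and its strandedness, nothing is given in the sources used here. No read counts were used, since these tables hold none, and coverage only described depth.

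Groups came from the genotype label. Several table rows of one gene name were summed, and each member had a single one. A gene was tested if it reached 1 TPM in 2 or more libraries (12251 genes), on log2(TPM + 1) by limma 3.58.1 under R 4.3.3 with a mean trend and the YFP group as the only term. p-values were adjusted by Benjamini-Hochberg over all of these genes, with a threshold of 0.05. Fold changes are YFP+ minus YFP- on that scale, where low genes show less than their full change, and SE is limma's moderated standard error. In the main fit limma estimated infinite prior degrees of freedom. Its p-values thus rest on the variance trend over all genes and not on a gene's own 2 libraries per group. The estimate was 6.87 under quantile normalization, 16.2 under median-ratio scaling, 5.56 under loess and 1.04 with no filter. In these settings p-values rest in part on a gene's own libraries. Alternatives changed the pseudocount (0.1), the filter (none, or 5 TPM), the scaling (quantile, median-ratio, cyclic loess) or the unit (FPKM), added the title start as a block, or left out each library. Libraries of the same title start had deviations from their group means that correlated at -0.01 across genes, so the start was not taken as a pairing. The members, pathway lists and marker lists were chosen with earlier results of these data known. Named were the 8 members and, of each pathway list, up to 4 called genes by adjusted p and up to 2 uncalled genes of highest mean TPM. Genes of similar pattern were the 3 nearest to each tested member, leaving out predicted genes and those under a mean of 5 TPM in the higher group. Promoters came from RefSeq (GRCm38.p6). Python 3.11.15, pandas 2.3.3, NumPy 2.4.6 and matplotlib 3.10.9 served the other steps.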

Additional observations from a re-analysis of the deposited data

Results flagged for a closer look

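The difference of Slc2a6 between YFP+ and YFP- libraries had opposite signs in the title starts, with 1.62 in the M pair and -1.002 in the FM pair on the log2(TPM + 1) scale. With 1 library of each group per title start this difference between the starts was not tested. Such opposite signs were seen in 13.3% of the 12251 tested genes, and the median difference of all genes was -1.01 in the M pair against -2.48 in the FM pair.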

How the results depend on the processing

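With limma, the 4 hexose transporters called lower became 2 with a pseudocount of 0.1, under quantile normalization, median-ratio scaling and cyclic loess, and with the title start as a replicate block, and 0 with no filter (3 at an unadjusted p under 0.05). With 1 library left out they ranged from 0 (without YFP- FM) to 4 (without YFP+ M). The count called higher became 1 under median-ratio scaling. Over all genes, 4834 lower became 3078 with a pseudocount of 0.1, 168 with no filter, 2902 with a filter at 5 TPM, 205 under quantile normalization, 723 under median-ratio scaling, 40 under loess and 1726 with the block, and 24 to 8280 with 1 library left out. The 64 higher became 1 with no filter, 148 under quantile normalization, 689 under median-ratio scaling, 115 with FPKM and 23 with the block, and 12 to 71 with 1 library left out. Of the sugar pathway genes, 13 lower became 8 with a pseudocount of 0.1, 0 with no filter (19 at an unadjusted p under 0.05), 3 under quantile normalization, 4 under median-ratio scaling, 2 under loess and 6 with the block, and from 0 without YFP- FM to 25 without YFP+ M. The 0 higher became 2 under quantile normalization, median-ratio scaling and loess. The block changed the calls of Slc2a3 and Slc2a9 and of no other member.

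Slc2a8 turned to 0.22 under quantile normalization, 0.55 under median-ratio scaling and 0.34 under loess. Slc2a9 turned to 0.10 under quantile normalization and 0.017 under loess. With 1 library left out Slc2a6 ranged from -1.05 without YFP- M, where its sign turned, to 1.67 without YFP- FM. For these members the cause was not tested. The share of Slc2a1 in the family differed by -19.4 percentage points and by -41.9 with Slc2a5 left out of the sum, and by -27.4 to -11.5 with 1 library left out. The difference in the share of Slc2a3 was 1.009 points and ranged from -0.53 to 2.55 with 1 library left out, turning without YFP- M. Leaving out a library leaves 1 sample in its group, which is assumed to vary like the others.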
